A study of Drosophila melanogaster with 2 samples.

Results

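The peroxiredoxin genes of *Drosophila* and 1 gene that lies among them were examined in indirect flight muscle after knockdown (KD) of *blistered* (*bs*), the fly SRF gene. The set held 7 of the 13931 genes in the deposited table. Of these, 6 are peroxiredoxin genes, namely *CG12896*, *Prx6b*, *Prx6c*, *Prx3*, *Prx2* and *Prx5*, and the other is their neighbour *CG11825*. They were selected on gene family, on position and on their levels in these same libraries, so the levels below describe the libraries and support nothing further. The *bs* KD library came from progeny of the driver line *1151-Gal4*, active from the myoblast stage onwards, and the RNAi line KK108659 against *bs*. The control library came from progeny of *1151-Gal4* and *w1118* and carried the driver alone. For each library 4 females were kept for 3 days at 29°C and their flight muscles were pooled, and there was no replicate. The flies of the 2 groups had 1 parental stock in common and differed in the other, and an effect of the stock cannot be told apart from one of the knockdown.

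Levels are given in TPM, a share of all transcripts corrected for transcript length, as the authors obtained them with Salmon. *bs* itself stood at 1.80 TPM in *bs* KD and 2.75 TPM in the control, a ratio of 0.656 with an interval of 0.495 to 0.865. This level is for the whole gene, whereas the RNAi line targets the RA and RC transcripts and not RB. By qPCR the paper reported a stronger reduction of RA and RC in flight muscle than this ratio. All intervals are exact 95% intervals of the ratio of *bs* KD over control, and they cover counting error only. The deposited read numbers summed to 19767477 in *bs* KD and 20955053 in the control. Genes that reached 1 TPM in either library, 6384 in all, were counted as detected. Changes are log2 of *bs* KD over control after 1 TPM was added to both, which understates the change of low genes, and 2-fold (log2 of 1) was the size used for counts. Over the 1804 genes with 10 TPM or more in both libraries the median change was 0.13. All 8 flight muscle markers examined were detected, among them *fln* at 16499.9 TPM in *bs* KD and 13111 TPM in the control, and 1 was lower by 2-fold or more, *Act88F* (the flight muscle actin), at 7471 TPM in *bs* KD and 33116 TPM in the control.

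Peroxiredoxins are enzymes that break down hydrogen peroxide and organic peroxides with a reactive cysteine, which is oxidised in the reaction. In the 2-Cys class another cysteine closes a disulphide that thioredoxin reduces again, whereas the Prx6 type works with 1 conserved cysteine. Flight muscle is packed with mitochondria, and their respiratory chain is a source of such peroxides. The 7 genes fall into 3 groups by role: the Prx6-type genes of the block on chromosome arm 2R, the other peroxiredoxins, which lie on the X chromosome and on arm 3R, and *CG11825*. The RefSeq gene table gives *CG11825* the synonym dHIG1. In yeast and mammals, HIG1 family proteins reside in mitochondria and associate with the respiratory chain.

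Of the 7 genes, 4 were lower by 2-fold or more in *bs* KD, 1 was higher by that size and 2 were neither. Among all detected genes 6.05% were lower and 9.38% were higher by 2-fold or more. These shares are given as background only, since the same values led to the choice of the genes. All 7 genes were at 1 TPM or more in both libraries, so none passed detection through its higher library alone. The median change over the 7 genes was −1.33, beside 0.07 over all detected genes. This median is the value of *Prx6c* alone. Moreover, *CG12896*, *Prx6b* and *Prx6c* are close copies that shared reads, as described below, and are not separate observations. The count and the median therefore do not show a decrease of the set as a whole. With the 3 copies counted as 1 gene, an alternative chosen after seeing the data, 2 genes were lower and 1 was higher. The 4 lower genes were *CG12896*, *Prx6b*, *Prx6c* and *CG11825*, which make up the block, and the higher gene was *Prx3*.

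**Figure D1:**
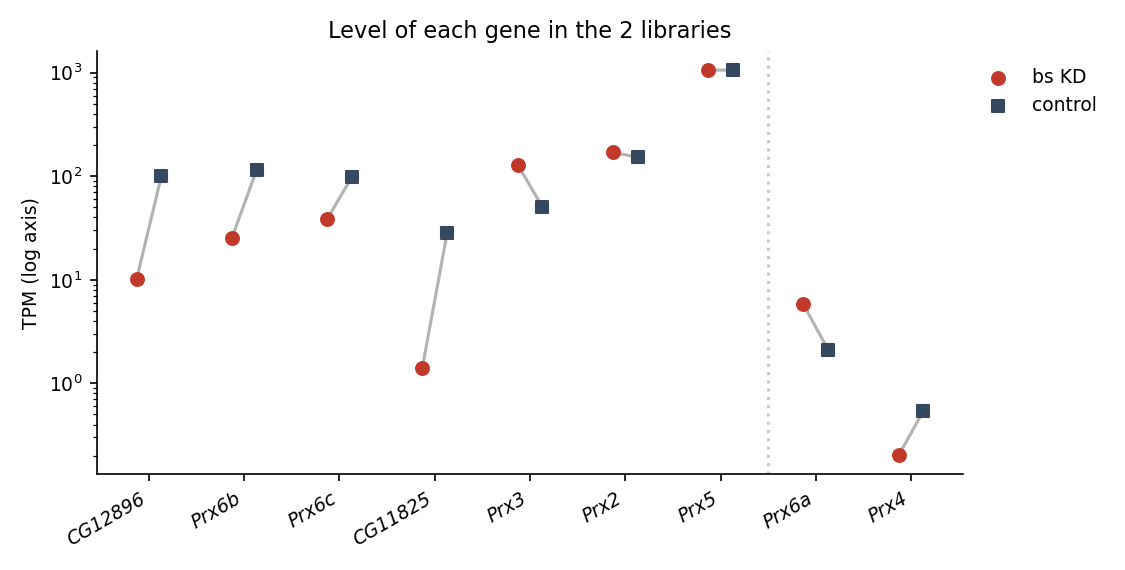
TPM on a log axis of the 7 genes and, right of the dotted line, of *Prx6a* and *Prx4*, in the *bs* KD library (circles) and the control library (squares). Each point is 1 library. The 4 genes at the left stand lower in *bs* KD, with *CG11825* at 1.42 against 28.2 TPM, while *Prx3* stands higher at 129.7 against 50.5 TPM.

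In Release 6 coordinates the block runs from 10418718 to 10427915 on chromosome arm 2R, a span of 9.20 kb. *Prx6c* (FBgn0033518) lies first, on the plus strand from 10418718 to 10419761. *CG11825* (FBgn0033519) follows on the minus strand, from 10420414 to 10423650. *Prx6b* (FBgn0033520) is next, on the plus strand from 10424436 to 10425471, and *CG12896* (FBgn0033521) closes the block on the minus strand, from 10426880 to 10427915. The genes thus alternate in strand. The annotated structures of the 3 peroxiredoxin genes are nearly the same. Each has 1 transcript of 4 exons that codes for 220 residues, and in each exon 2 is 375 bases, exon 3 is 76 bases and the introns are 62, 63 and 63 bases. *Prx6b* and *CG12896* have the same length in every exon, with a spliced length of 848 bases. *Prx6c* has a spliced length of 856 bases, with a first exon of 170 instead of 179 bases and a last exon of 235 instead of 218 bases.

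*CG12896* stood at 10.1 TPM in *bs* KD and 99.99 TPM in the control. It was thus 9.90-fold lower, at 10.1% of its control level, and the interval of the ratio was 0.0832 to 0.122. The log2 change of −3.19 was the 19th lowest of all detected genes. *Prx6b* stood at 25.2 TPM in *bs* KD and 115 TPM in the control, which is 22.0% of the control level with an interval of 0.193 to 0.249. Its log2 change was −2.14. *Prx6c* stood at 38.5 TPM in *bs* KD and 98.3 TPM in the control, which is 39.1% of the control level with an interval of 0.351 to 0.435, and a log2 change of −1.33. The 3 genes therefore had like levels in the control and unlike levels in *bs* KD. Among their summed TPM, *Prx6c* held 52.2% in *bs* KD and 31.4% in the control, while *CG12896* held 13.7% in *bs* KD and 32.0% in the control. *Prx6b* held 34.1% in *bs* KD and 36.6% in the control.

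How far these single values can be read depends on how reads were divided between the copies, and the deposited read numbers bear on this. In each library most read numbers were whole multiples of 1 value, 1.1167 in *bs* KD and 1.116 in the control. After division by it, the read numbers were whole within 0.05 reads for 87.7% of the genes above 0 in *bs* KD and 88.7% in the control. A gene that takes only its own reads has a whole number. A division of reads between genes mostly gives numbers that are not whole, though it can fall near a whole one. On this scale *bs* KD had 308.2 reads for *Prx6b*, 476.1 for *Prx6c* and 123.6 for *CG12896*, none of them whole. The control had 1394.9 reads for *Prx6b*, 1209.1 for *Prx6c* and 1217.0 for *CG12896*, of which only the last was whole. The sum over the 3 genes was whole in both libraries, at 908 reads in *bs* KD and 3821 reads in the control. No sum of any 2 of them was whole in *bs* KD (431.9, 784.4 and 599.8 reads). In the control the sum of *Prx6b* and *Prx6c* was whole (2604.0 reads), beside the whole number of *CG12896*. Reads were thus split among all 3 genes in *bs* KD and at least between *Prx6b* and *Prx6c* in the control. The whole number of *CG12896* in the control does not show that it took only its own reads, since a split can give one too. The total of the 3 does not depend on the split.

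Summed over *CG12896*, *Prx6b* and *Prx6c*, the level was 73.7 TPM in *bs* KD and 313 TPM in the control. The copies together were thus 4.24-fold lower (interval 3.95-fold to 4.57-fold), at 23.6% of the control level. The log2 change was −2.07, and −2.20 relative to the median shift of 0.13. The order of the 3 copies in *bs* KD rests on the division of reads and is less certain than this sum. The intervals given above for single copies leave that uncertainty out.

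*CG11825* had the largest decrease in the set, and its read number was whole in both libraries, apart from the copies. It stood at 1.42 TPM in *bs* KD and 28.2 TPM in the control, or 5.02% of the control level. These levels rest on 14 reads in *bs* KD and 229 reads in the control. The gene was 19.9-fold lower, and with so few reads the interval runs from 11.6-fold to 37.0-fold. Its log2 change of −3.60 was the 11th lowest of all detected genes. *CG11825* has 3 annotated transcripts, with spliced lengths of 598, 1068 and 1218 bases. In the control the TPM and the reads together imply an effective length of 499.0 bases, which is the effective length of the 598-base transcript. In *bs* KD they imply 604 bases, between the effective lengths of the shortest transcript and the longer ones, but only 14 reads bear on it. The fold in TPM includes this difference in length, and the interval leaves the uncertainty of the length out. The gene *CG33474* lies within *CG11825* on the opposite strand, and it had 1 read in *bs* KD and was listed at 0 in the control.

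**Figure D2:**
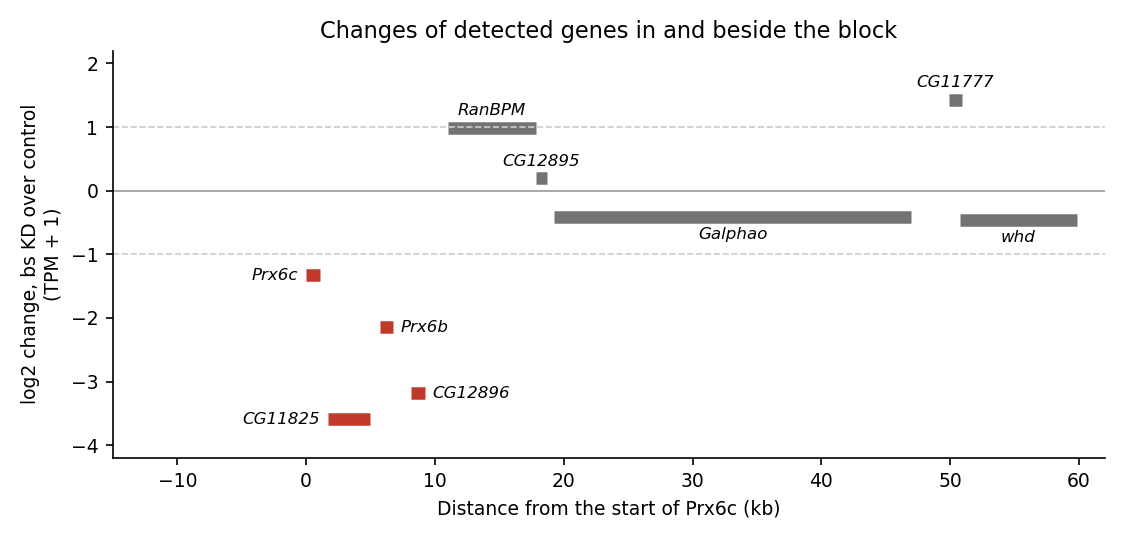
Log2 change of TPM plus 1, *bs* KD over control, of each detected gene in the block (red) and within 50000 bases of it (grey), drawn as bars from the start to the end of the gene in kb from the start of *Prx6c*. Dashed lines mark 2-fold. The 4 genes of the block lie between −1.33 and −3.60 and the 5 detected neighbours between −0.46 and 1.43.

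Within 50000 bases on either side, 14 other genes were in the table and 5 were detected, of which 0 were lower and 1 was higher by 2-fold or more. With 6.05% of all detected genes lower, 0 of 5 is near the background. The nearest detected gene was *RanBPM*, which encodes a Ran-binding scaffold protein and begins 1793 bases beyond *CG12896*. It stood at 16.5 TPM in *bs* KD and 7.80 TPM in the control, a log2 change of 0.99. *CG12895* followed with 54.7 TPM in *bs* KD and 47.7 TPM in the control. *CG11777* was the one counted as higher by 2-fold or more, at 6.60 TPM in *bs* KD and 1.83 TPM in the control (log2 change 1.43). *RanBPM* fell just short of that size only because 1 TPM was added to both levels. *whd*, the carnitine palmitoyltransferase gene, had 41.8 TPM in *bs* KD and 57.9 TPM in the control. On the other side no gene within this distance was detected, and the nearest detected one, *RNaseZ*, lies 109 kb away and had 1.03 TPM in *bs* KD and 1.18 TPM in the control. With detected genes placed in order along each chromosome, there were 3 runs of at least 4 adjacent genes all lower by 2-fold or more, and the block was the run of exactly 4. Genes that were not detected, such as *CG33474*, were passed over. This is description only, since the block was chosen with these levels known and its close copies, which shared reads, are not separate observations.

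*Prx3* (FBgn0038519, chromosome arm 3R, 17545222 to 17546531) encodes the mitochondrial 2-Cys peroxiredoxin. It stood at 129.7 TPM in *bs* KD and 50.5 TPM in the control. It was 2.57-fold higher, with an interval of 2.36 to 2.80, on 1947 reads in *bs* KD and 754 reads in the control, both whole. The log2 change was 1.34, or 1.22 relative to the median shift, the 296th highest of the detected genes. Among the 665 detected genes whose control level was within 2-fold of that of *Prx3*, the nearest in log2 change were *mRpS35* (1.36), *Pif1B* (1.36) and *mRpL23* (1.38). The same search for *CG12896*, among 384 genes, found no gene closer than *CG8736* at −2.68, followed by *Cpr100A* at −3.81 and *CG45080* at −2.52. The change of *CG12896* used there rests on the division of reads between the copies. Few genes are near so large a change in any case. With 2 libraries a likeness in change between genes is a single difference.

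*Prx2* and *Prx5* kept levels near the control. *Prx2* (FBgn0040309, X chromosome, 13329824 to 13331994), the 2-Cys peroxiredoxin of the cytosol and formerly *Jafrac1*, stood at 169.7 TPM in *bs* KD and 153 TPM in the control. Its ratio was 1.11 (interval 1.05 to 1.18), and its log2 change of 0.15 was 0.03 relative to the median shift. *Prx5* (FBgn0038570, chromosome arm 3R, 18165442 to 18167273), a peroxiredoxin of the atypical 2-Cys class, was the most abundant of the set. It stood at 1057 TPM in *bs* KD and 1061 TPM in the control, a ratio of 0.997 with an interval of 0.970 to 1.02. It ranked 160th of all genes by TPM in *bs* KD and 159th in the control. *Prx5* overlaps *CG7215* on the same strand over its whole length, and its read number was not whole in either library. *CG7215* stood at 5.55 TPM in *bs* KD and 3.65 TPM in the control, which is small beside *Prx5*.

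**Figure D3:**
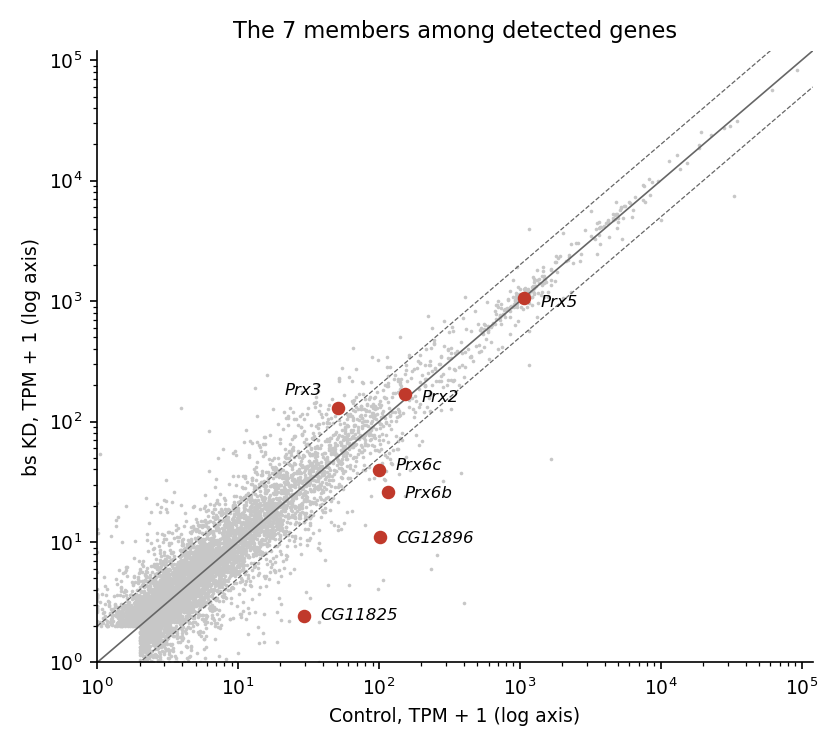
TPM plus 1 of all 6384 detected genes, control on the horizontal and *bs* KD on the vertical axis (both log), with the 7 genes in red. The solid line marks equal levels and the dashed lines 2-fold. *Prx5* lies at the line, *Prx3* above the upper dashed line, and *Prx6c*, *Prx6b*, *CG12896* and *CG11825* below the lower one.

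The make-up of the peroxiredoxin pool differed more than its total. Over all 9 peroxiredoxin genes in the table the sum was 1436 TPM in *bs* KD and 1579.5 TPM in the control, a ratio of 0.909. *Prx5* held 73.6% of it in *bs* KD and 67.2% in the control. The 3 close copies held 5.13% in *bs* KD and 19.8% in the control, and *Prx3* held 9.03% in *bs* KD and 3.20% in the control. In the control the Prx6-type copies together thus stood above *Prx2* and *Prx3*, and in *bs* KD they stood below both.

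**Figure D4:**
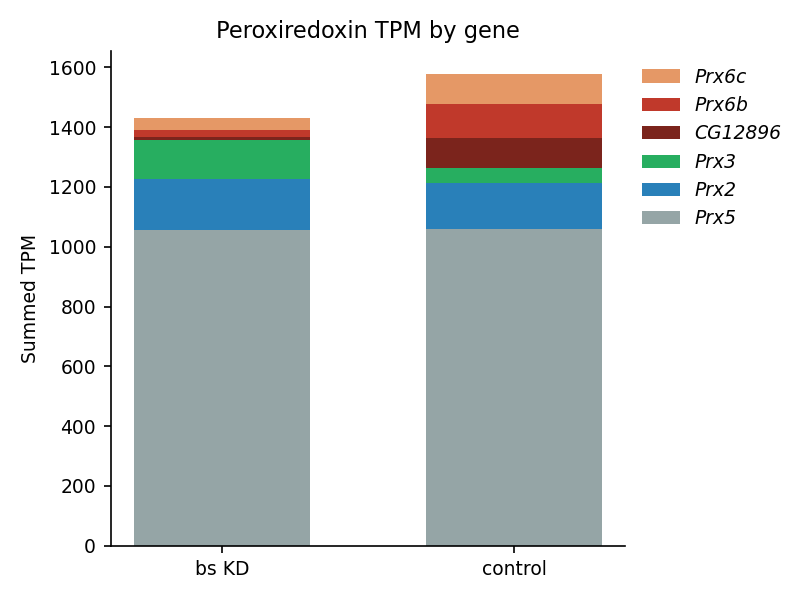
Stacked TPM of *Prx5*, *Prx2*, *Prx3* and the 3 close copies in *bs* KD and in the control, 1 library each. *Prx5* forms the lower part of both bars at 1057 TPM in *bs* KD and 1061 TPM in the control, and the 3 copies at the top add 73.7 TPM in *bs* KD and 313 TPM in the control.

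The peroxiredoxin genes outside the set were low. *Prx6a* (chromosome arm 2L), the remaining Prx6-type gene, stood at 5.78 TPM in *bs* KD and 2.10 TPM in the control, with an interval of the ratio of 1.74 to 4.49 on 72 reads in *bs* KD and 26 reads in the control. Unlike the block it was thus higher, by 1.13 on the log2 scale. *Prx4* (formerly *Jafrac2*), a secretory pathway peroxiredoxin, had 3 reads in *bs* KD and 8 in the control and was not detected, and *Prx1* was listed at 0 in both libraries.

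Of 11 genes for the recycling of peroxiredoxins 6 were detected, with 0 lower and 1 higher by 2-fold or more and a median change of 0.61. Beside 6.05% lower and 9.38% higher over all detected genes, counts this small set the list apart in neither direction. The higher one was *Txl*, a thioredoxin-like gene, at 62.3 TPM in *bs* KD and 13.2 TPM in the control (log2 change 2.16). *Trx2*, the main cytosolic thioredoxin, stood at 225 TPM in *bs* KD and 126 TPM in the control, a log2 change of 0.83. *Sesn*, the sestrin gene, stood at 197 TPM in *bs* KD and 112 TPM in the control. *Trxr1*, the thioredoxin reductase, had 34.3 TPM in *bs* KD and 33.8 TPM in the control, the smallest change of the list among genes with 10 TPM or more in either library.

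Of 9 genes for other enzymes of peroxide and superoxide removal 7 were detected, with 0 lower and 0 higher by 2-fold or more and a median change of 0.02. Most detected genes of the table also lay within 2-fold, so this count is near the background. *Sod2*, the mitochondrial superoxide dismutase, had the largest change among those with 10 TPM or more in either library, with 628 TPM in *bs* KD and 916 TPM in the control. *Cat* (catalase) had the smallest change by the same rule, with 62.7 TPM in *bs* KD and 81.4 TPM in the control. *Sod1*, the cytosolic superoxide dismutase, had 292 TPM in *bs* KD and 225 TPM in the control. *Gtpx*, a glutathione peroxidase homolog, had 320.3 TPM in *bs* KD and 231 TPM in the control. Of 11 regulators of the stress response 10 were detected, with 1 lower and 1 higher by 2-fold or more, again near the background. The lower one was *foxo*, a transcription factor of stress and insulin signalling, at 6.81 TPM in *bs* KD and 21.0 TPM in the control. The higher one was *puc*, the JNK phosphatase gene, at 9.91 TPM in *bs* KD and 2.83 TPM in the control. *Pink1*, a mitochondrial quality control kinase gene, had the smallest change of the list among genes with 10 TPM, at 95.3 TPM in *bs* KD and 102 TPM in the control. *cnc*, the fly Nrf2 gene, had 14.9 TPM in *bs* KD and 12.2 TPM in the control.

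Genes used as markers of other cell types were also in the libraries. The highest were *CtsL1*, *Desat1*, *nrv2* and *Gs2*, and no other exceeded the 14.0 TPM of the tracheal marker *verm* in the control. Whether flight muscle itself expresses these high genes was not tested. As background to the counts below, 6.05% of all detected genes were lower and 9.38% were higher by 2-fold or more. Of 6 tracheal markers all were detected and 3 were lower by 2-fold or more, with a sum of 12.7 TPM in *bs* KD and 40.6 TPM in the control. The lower ones were *verm*, *serp* and *Gasp*. The others lay within 2-fold, with log2 changes of −0.21 for *btl* and −0.38 for *trh*. *dysf* went the other way, at 3.95 TPM in *bs* KD and 2.24 TPM in the control (log2 change 0.61). Of 7 fat body markers 6 were detected and 3 were lower, although the sum was 88.7 TPM in *bs* KD and 67.4 TPM in the control, most of it from *CtsL1* (67.6 TPM in *bs* KD and 40.7 TPM in the control). *Yp1* was also higher, at 9.31 TPM in *bs* KD and 4.35 TPM in the control (log2 change 0.95), and *Yp2* was lower within 2-fold. Of 3 oenocyte markers 2 were detected, with a sum of 108 TPM in *bs* KD and 180.2 TPM in the control. Nearly all of this was *Desat1*, at 108 TPM in *bs* KD and 177 TPM in the control, and the marker lower by 2-fold or more was *Cyp4g1*, at 0.0281 TPM in *bs* KD and 3.42 TPM in the control. Of 5 glial markers 3 were detected and 1 was higher, with a sum of 192 TPM in *bs* KD and 89.6 TPM in the control. The higher one was *nrv2*, at 84.6 TPM in *bs* KD and 10.4 TPM in the control, and *Gs2* had 105 TPM in *bs* KD and 74.9 TPM in the control. Nearly all of the sum came from *nrv2* and *Gs2*. The remaining glial markers were lower in *bs* KD. *moody* had 1.90 TPM in *bs* KD and 3.66 TPM in the control, *repo* 0.296 and 0.496 TPM, and *alrm* 0 and 0.190 TPM. The part of these cell types in the levels of the block was not tested. Gut markers had 5 of 6 detected with 2 higher, and a sum of 8.90 TPM in *bs* KD and 3.39 TPM in the control. Of 6 hemocyte and 5 neuronal markers 1 each was detected, and none of 4 ovary markers was. In dissected tissue, fewer cells of a type and less RNA per cell cannot be told apart.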

How the data were processed

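Poly-A RNA was sequenced as single-end reads of 100 bp, and the authors quantified it with Salmon on the transcripts of *D. melanogaster* release 6.21. TPM and estimated counts per gene and library were used as the authors deposited them. The deposited lengths of genes with several transcripts were not used, since TPM and reads imply others. The deposited comparison (fold changes and p-values from DESeq2) was not used. All columns of per-sample values were matched to a sample.

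Symbols (13842 of 13931 genes) and coordinates came from the Release 6 annotation BDGP6.54, and listed older names were matched through RefSeq synonyms. With 1 library per group no test was made. Ratio intervals are exact (Clopper-Pearson) on reads divided by the value of 1 read per library (tolerance 0.05 reads). Those reads summed to 17700939 in *bs* KD and 18777039 in the control. The steps were tested on simulated data. Python 3.11.15, numpy 2.4.6, pandas 2.3.3 and scipy 1.17.1 were used.

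The genes and lists were chosen with earlier results of these data known. Named genes were the set, the other peroxiredoxins, detected neighbours within 50000 bases that changed by 2-fold or were nearest, per list the largest and smallest change among genes with 10 TPM or more in either library, and the 3 genes nearest to *Prx3* and *CG12896*. *Prx1*, *CG7215*, *CG33474*, *CG12895*, *whd*, *RNaseZ*, *Trx2*, *Sesn*, *Sod1*, *Gtpx*, *puc*, *cnc*, *fln*, *Act88F*, *CtsL1*, *Desat1*, *nrv2*, *Gs2*, *moody*, *repo*, *alrm*, *verm* and *Cyp4g1* were chosen after their values were seen. Alternatives covered the pseudocount, scaling, size of change and detection. A promoter motif search and a sequence comparison of the copies were not made here.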

Additional observations from a re-analysis of the deposited data

How the results depend on the processing

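The number of genes of the set lower by 2-fold or more was 4 under every pseudocount, scaling and detection rule tried, 3 at 4-fold, and 2 with the 3 close copies counted as 1 gene, an alternative chosen after seeing the data. The number higher was 1, except for 0 at 4-fold. The summed log2 change of the 3 copies was −2.20 with median-ratio scaling, −2.22 with upper-quartile scaling and −1.97 with estimated reads scaled to their library sum, and −2.57 without *Prx6c*, which was also added after seeing the data. The sign of each gene held under all 5 pseudocount and scaling alternatives except for *Prx5*, whose change ran from −0.15 to 0.09. *CG11825* ran from −3.91 to −2.37, the smaller change with 5 TPM added. Among all detected genes the numbers lower and higher were 136 and 262 with 5 TPM added, 966 and 1358 at 1.5-fold, 63 and 96 at 4-fold, and 169 and 368 with detection at 10 TPM. The split of 386 lower and 599 higher genes became 448 and 465 with median-ratio scaling and 462 and 447 with upper-quartile scaling. The 14 reads of *CG11825* in *bs* KD limit its fold. No paired analysis was possible because each group has 1 library.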
